A study of Homo sapiens with 12 samples.

Results

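The genes described here are the 10 transcripts of the MYC, MAX and MXD network that were chosen by symbol: MYC, MYCL, MAX, MXD1, MXD3, MXD4, MXI1, MNT, MLX and MLXIP. All 10 were found among the 26485 gene symbols of the count files, and all 10 passed the filter on low counts that left 16373 genes for testing. RNA was sequenced from A549, a human lung adenocarcinoma line, and from BEAS-2B, a human bronchial epithelial line that the study calls B2B, both labelled wild type and both grown in the same serum-containing medium. Each line was left without treatment (A549_NT and B2B_NT), exposed for 72 h to SR11302 at 10 µM (A549_SR11302 and B2B_SR11302) or exposed for 72 h to SP600125 at 50 µM (A549_SP600125 and B2B_SP600125), which makes 6 groups of 2 libraries. SR11302 is a retinoid used to block AP-1, the dimer of FOS and JUN proteins, and SP600125 is an inhibitor of the JNK kinases that phosphorylate JUN. The inhibitors were dissolved in DMSO, and whether the untreated cells received DMSO is not settled by the sources used here. The comparisons ask how the lines differ at rest, what each inhibitor does in each line, and whether the lines respond alike.

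MYC is a basic helix-loop-helix leucine zipper protein that binds DNA only as a dimer with MAX, at the E-box, and drives genes of ribosome assembly, nucleotide supply and cell growth. MYCL and MYCN are its paralogs. The MXD proteins, MXI1 (also called MXD2) and MNT compete for MAX and for the same DNA, and they recruit the SIN3 corepressor with its histone deacetylases, so they act as antagonists of MYC. MGA also dimerises with MAX. MLX forms a parallel arm of the network: it pairs with MLXIP (MondoA) or MLXIPL (ChREBP), which sense glucose-derived metabolites and switch on genes such as TXNIP and ARRDC4, and it can also pair with MXD1, MXD4 and MNT. In lung cancer cells MYC is best known as a growth driver whose gene lies downstream of many mitogenic signals.

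RefSeq promoter windows of build GRCh38.p14, from 250 bases before to 50 bases after a transcription start, were listed for 9 of the 10 genes, in 12 windows, and not for MYC. They were searched for the E-box CACGTG, the AP-1 site TGANTCA and the cAMP response element TGACGTCA, each of which reads the same on both strands and none of which overlapped another match here. Of 35116 promoters of the same length in the table, 7.26% held the E-box, 7.71% the AP-1 site and 1.85% the cAMP response element. Of the 12 windows of the network genes, the E-box was found in 3 (MXD4, MNT and MLX), the AP-1 site in 1 (MXD3) and the cAMP response element in 1 (MLXIP). The 5 matches are given here in 30 bases of the gene's own strand with the motif in capitals, because they are the places where the MYC dimer itself, or the factor the inhibitors aim at, could read these genes. They are letters in a window and not measured binding sites.
MXD3, chr5:177312813-177312842, minus strand, AP-1 site beginning 79 bases before the start: aggtcacctccTGAGTCAtacacagctgag
MXD4, chr4:2262330-2262359, minus strand, E-box beginning 238 bases before the start: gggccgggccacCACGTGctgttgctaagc
MNT, chr17:2401236-2401265, minus strand, E-box beginning 193 bases before the start: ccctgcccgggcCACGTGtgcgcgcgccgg
MLX, chr17:42567038-42567067, plus strand, E-box beginning 50 bases before the start: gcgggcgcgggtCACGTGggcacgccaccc
MLXIP, chr12:122078688-122078717, plus strand, cAMP response element beginning 57 bases before the start: agacgcctcggTGACGTCAcgccggggccg

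Libraries held 13969766 to 24917854 reads in genes, and reads that fell in no gene made up 23.8% to 25.89% of untreated libraries against 14.58% to 20.12% of treated ones. Reads ambiguous between genes made up 1.94% to 2.03% of untreated libraries and 1.19% to 1.49% of treated ones. Treatment thus coincided with a difference in library make-up, and its part in the changes below was not tested. The libraries of A549_SR11302 differed most from each other, with a median absolute log2 ratio of 0.227 over 15355 genes against 0.078 to 0.159 within the other groups. For the 10 genes, many values that rest on them are therefore also given without each library. These are chiefly values where a call changed or the value moved by over 1.5 times, and not every such value is listed. Of the line markers, the epithelial genes EPCAM, CDH1, KRT8, KRT18 and KRT19 summed to 12525 CPM (counts scaled to a common library size) in A549_NT and 825 CPM in B2B_NT, while 5 alveolar type II genes summed to 1.52 CPM in A549_NT. The 5 bronchial basal cell genes summed to 404 CPM in B2B_NT and 52.8 CPM in B2B_SP600125, nearly all of it KRT17, with KRT5, KRT14 and TP63 under 1 CPM. Of 8 markers of other cell types, COL1A1, a collagen gene, stood at 4343 CPM in B2B_NT and 377 CPM in B2B_SP600125 against 12.5 CPM in A549_NT, the macrophage gene CD68 went from 45.8 CPM in A549_NT to 3.43 CPM in A549_SP600125, and the endothelial genes PECAM1 and VWF were under 1 CPM in both untreated lines and at 3.24 to 6.68 CPM under SP600125, while PTPRC, CD3E, DCN and ALB stayed under 1 CPM in every group. The part of these shifts in the results below was not tested. Fewer cells of a kind and less RNA per cell cannot be told apart in bulk RNA. The sources do not say whether the 2 libraries of a group came from separate cultures, so p-values measure the spread between libraries, which may be technical.

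Levels below are CPM scaled by the TMM method, and changes are log2 fold changes ± standard error (SE) with Benjamini-Hochberg adjusted p-values from the quasi-likelihood test of edgeR. A gene was called when the adjusted p was under 0.05 and the log2 fold change was at least 0.5 in size. Comparing the untreated lines, 6 of the 10 network genes passed, 2 of them (MYC and MNT) above and 4 (MYCL, MXD1, MXD3 and MXD4) below their B2B level, where 56.9% of all tested genes were called. SR11302 gave 4 calls in A549 (27.8% of all genes) and 1 in B2B (22.5% of all genes). SP600125 gave 7 calls in A549 (48.8% of all genes) and 3 in B2B (43.8% of all genes). The direct tests of the difference between the lines called 3 of the 10 for SR11302 (15.8% of all genes) and 5 of the 10 for SP600125 (25.2% of all genes). For MXD1, MXI1 and MLX the line difference under SR11302 was 0.79, 0.40 and -0.40 with all libraries, not called. The values were 1.09, 0.67 and -0.54 without A549_SR11302 replicate 1, where they were called. Without replicate 2 they were 0.43, 0.11 and -0.23 and were not called, so the 2 libraries disagreed. A549 and B2B differed in 4 of the 10 under SR11302 (56.5% of all genes) and in 7 under SP600125 (58.2% of all genes), and SP600125 differed from SR11302 in 5 of the 10 in A549 (37.1% of all genes) and 3 in B2B (33.7% of all genes). With 10 genes, these shares stand within a few genes of the background, so the account rests on which genes moved and in which direction rather than on how many did.

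**Figure D1:**
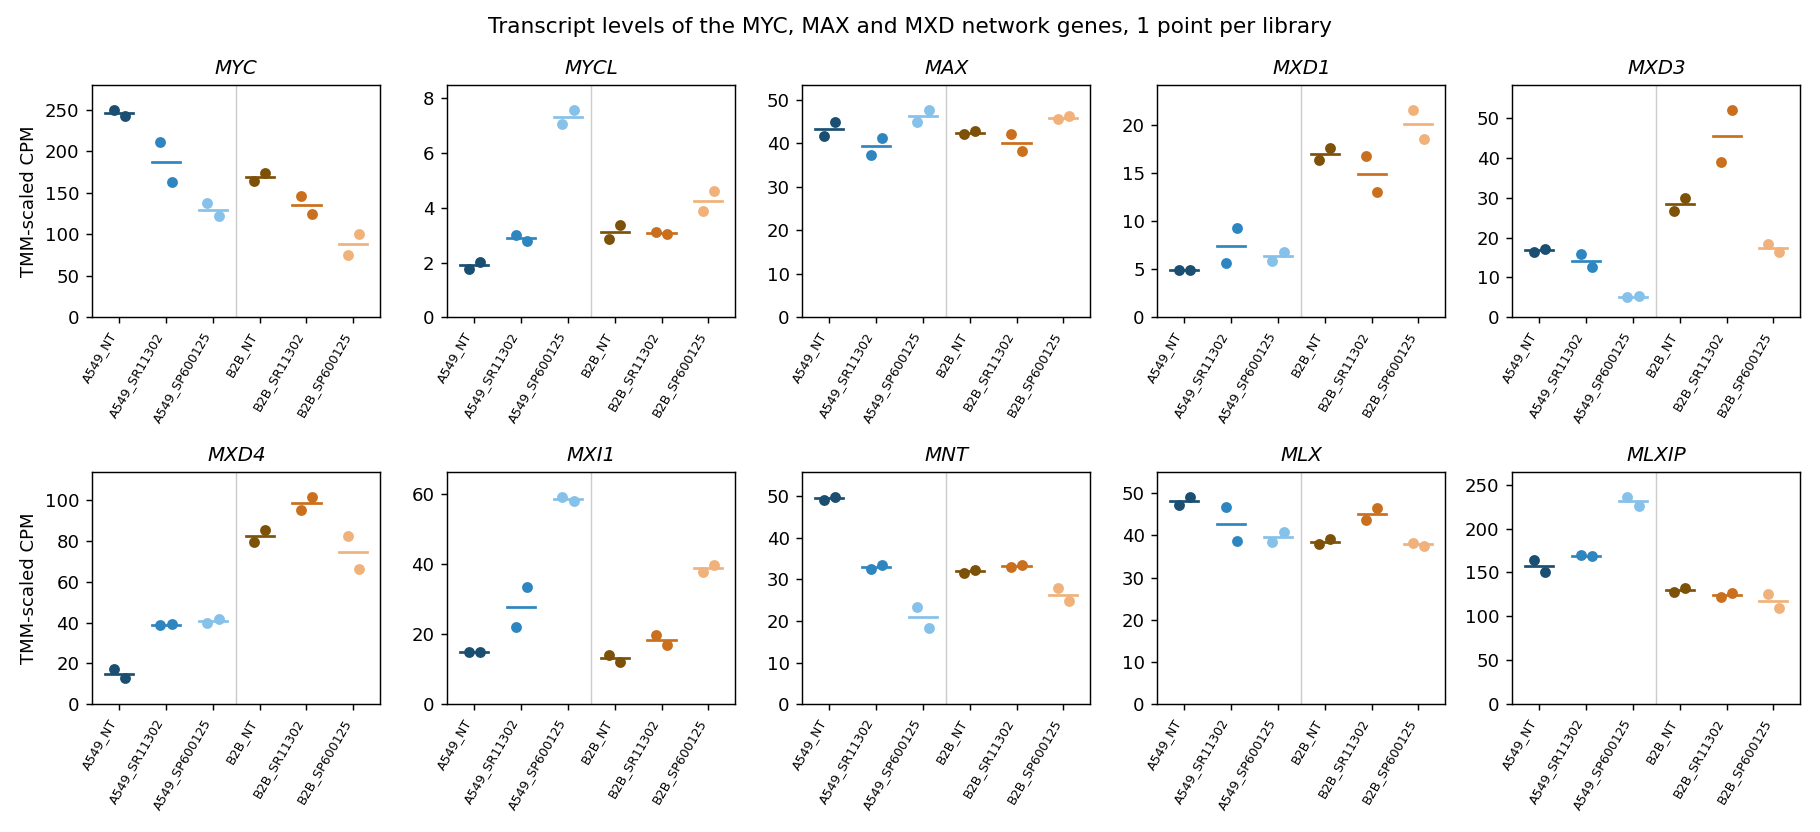
TMM-scaled CPM (linear axis from 0, separate for each gene) of the 10 network genes in the 6 groups. Each point is a library and each bar the mean of 2. MYC steps down from untreated to SR11302 to SP600125 in both lines (246 to 130 CPM in A549, 169 to 88.0 CPM in B2B), MXI1 steps up, and MAX stays between 37.4 and 47.7 CPM.

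MYC, the activator that gives the network its name, had the highest transcript level in untreated A549 and fell under SP600125 in both lines by nearly the same factor. The gene lies at chr8:127735434-127742951 on the plus strand of hg38. It was measured at 250.1 and 243 CPM in A549_NT, 165 and 174 CPM in B2B_NT, 212 and 163 CPM in A549_SR11302, 146 and 125 CPM in B2B_SR11302, 138 and 122 CPM in A549_SP600125, and 75.4 and 101 CPM in B2B_SP600125. Every treated library lay below both untreated libraries of its line. Under SP600125 MYC fell by 0.92 ± 0.15 on the log2 scale in A549 (adjusted p = 0.000147), which is 1.9-fold, and by 0.94 ± 0.15 in B2B (adjusted p = 0.000149), which is 1.93-fold. The difference between those responses was 0.02 ± 0.21 (adjusted p = 0.974), so the lines could not be told apart within that error. Under SR11302 the fitted changes were -0.40 ± 0.15 in A549 (adjusted p = 0.0512) and -0.32 ± 0.15 in B2B (adjusted p = 0.122), neither of which was called. The A549 value depended on which library was left out, at -0.59 (adjusted p = 0.00338, called) without A549_SR11302 replicate 1 and -0.19 (adjusted p = 0.32) without replicate 2. At doses that differed between the compounds, SP600125 lay below SR11302 by -0.53 ± 0.15 in A549 (adjusted p = 0.0105) and -0.62 ± 0.15 in B2B (adjusted p = 0.00439). The A549 call was lost without A549_SR11302 replicate 1 (-0.33, adjusted p = 0.0771) or A549_SP600125 replicate 2 (-0.44, adjusted p = 0.103) and with the GC correction described below (-0.45), and the B2B call without B2B_SP600125 replicate 1 (-0.45, adjusted p = 0.0576).

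Between the untreated lines MYC was 1.45-fold higher in A549, a log2 difference of 0.54 ± 0.15 (adjusted p = 0.00532). That call sits close to the fold minimum and was lost at 0.42 when only library size was used for scaling, at 0.39 when the counts were corrected for GC content, and at 0.50 without B2B_NT replicate 1, each time with an adjusted p under 0.05 but a change under 0.5. Under SP600125 A549 stood above B2B by 0.56 ± 0.15 (adjusted p = 0.00462), a call lost without A549_SP600125 replicate 1 (0.47, adjusted p = 0.0502), without B2B_SP600125 replicate 1 (0.37, adjusted p = 0.069) and with library size only (0.38). Under SR11302 the difference of 0.47 ± 0.15 (adjusted p = 0.0133) fell short of the fold minimum, and it was 0.26 (adjusted p = 0.113) without A549_SR11302 replicate 1 but called without replicate 2 (0.66, adjusted p = 0.000517) or without B2B_SR11302 replicate 1 (0.58). Ordered by mean level, the groups ran from A549_NT (246 CPM) through A549_SR11302 (187), B2B_NT (169), B2B_SR11302 (136) and A549_SP600125 (130) to B2B_SP600125 (88.0). The ranges of A549_SR11302 and B2B_NT overlapped, as did those of B2B_SR11302 and A549_SP600125.

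The genes whose profile over the 12 libraries was most like that of MYC, among 10057 genes compared by Pearson correlation of log2 (CPM + 1), were PPA1 (r = 0.985), CCT5 (r = 0.983) and GNL3 (r = 0.977). PPA1 encodes inorganic pyrophosphatase, CCT5 a subunit of the TRiC chaperonin and GNL3 nucleostemin, a nucleolar GTPase that is also in the list of MYC target genes below. PPA1 ran from 200.1 and 195 CPM in A549_NT to 96.2 and 99.9 CPM in A549_SP600125, and from 121 and 123 CPM in B2B_NT to 49.1 and 67.1 CPM in B2B_SP600125. The libraries share line and treatment, so these r values are a description of the 6 groups more than of 12 independent points.

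MYCL, the paralog first found in lung cancer, moved against MYC in A549. The gene lies at chr1:39895428-39902256 on the minus strand and was weakly expressed, with 32 to 110 reads a library. Its level was 1.78 and 2.02 CPM in A549_NT, 3.01 and 2.8 CPM in A549_SR11302, and 7.08 and 7.58 CPM in A549_SP600125, where B2B held 2.87 and 3.38 CPM untreated, 3.12 and 3.04 CPM under SR11302, and 3.9 and 4.63 CPM under SP600125. Untreated A549 was thus the lowest group and SP600125-treated A549 the highest, with no overlap between them. SP600125 raised MYCL by 1.95 ± 0.21 in A549 (adjusted p = 5.74e-06), which is 3.85-fold, while the B2B value of 0.44 ± 0.20 was not called (adjusted p = 0.0808), except at 0.58 with scaling by library size only. The lines differed in that response by 1.51 ± 0.29 (adjusted p = 0.00231). The rise under SR11302 in A549, 0.61 ± 0.22 (adjusted p = 0.0477), did not survive most other settings, among them DESeq2 (adjusted p = 0.132) and leaving out A549_SR11302 replicate 1 (0.56, adjusted p = 0.12) or replicate 2 (0.69, adjusted p = 0.0769). Untreated A549 lay below B2B by -0.72 ± 0.22 (adjusted p = 0.0107), a call lost without A549_NT replicate 1 (-0.64, adjusted p = 0.0774) or B2B_NT replicate 2 (-0.60, adjusted p = 0.0943). On a per-length scale MYC stood far above MYCL everywhere: 66.2 against 0.539 CPM per kb of longest transcript in A549_NT, and 34.9 against 2.08 CPM per kb in A549_SP600125.

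MYCN, the third paralog, was near the floor. It had 19 and 23 reads in A549_NT, 9 and 21 in A549_SP600125, 0 and 2 in A549_SR11302, and at most 1 in any B2B library. No fold change is given for it, since most groups hold counts of 0 to 2. It was called lower under SR11302 in A549, from 19 and 23 reads to 0 and 2.

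MAX, the partner that MYC and its antagonists share, was called in none of the 11 comparisons tested. The gene lies at chr14:65006174-65102695 on the minus strand, and 13.1% of its exon bases overlap exons of FNTB on the other strand. Its libraries ran from 41.8 to 44.9 CPM in A549_NT, 42.1 to 42.8 in B2B_NT, 37.4 to 41.3 in A549_SR11302, 38.1 to 42.1 in B2B_SR11302, 44.9 to 47.7 in A549_SP600125 and 45.5 to 46.3 in B2B_SP600125. All 12 values fell within 37.4 to 47.7 CPM. The change under SP600125 was 0.10 ± 0.11 in A549 (adjusted p = 0.475) and 0.11 ± 0.11 in B2B (adjusted p = 0.398), and the untreated lines differed by 0.03 ± 0.11 (adjusted p = 0.816). Of the 11 comparisons, 0 had an unadjusted p under 0.05 for MAX in edgeR and 0 in DESeq2.

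**Figure D2:**
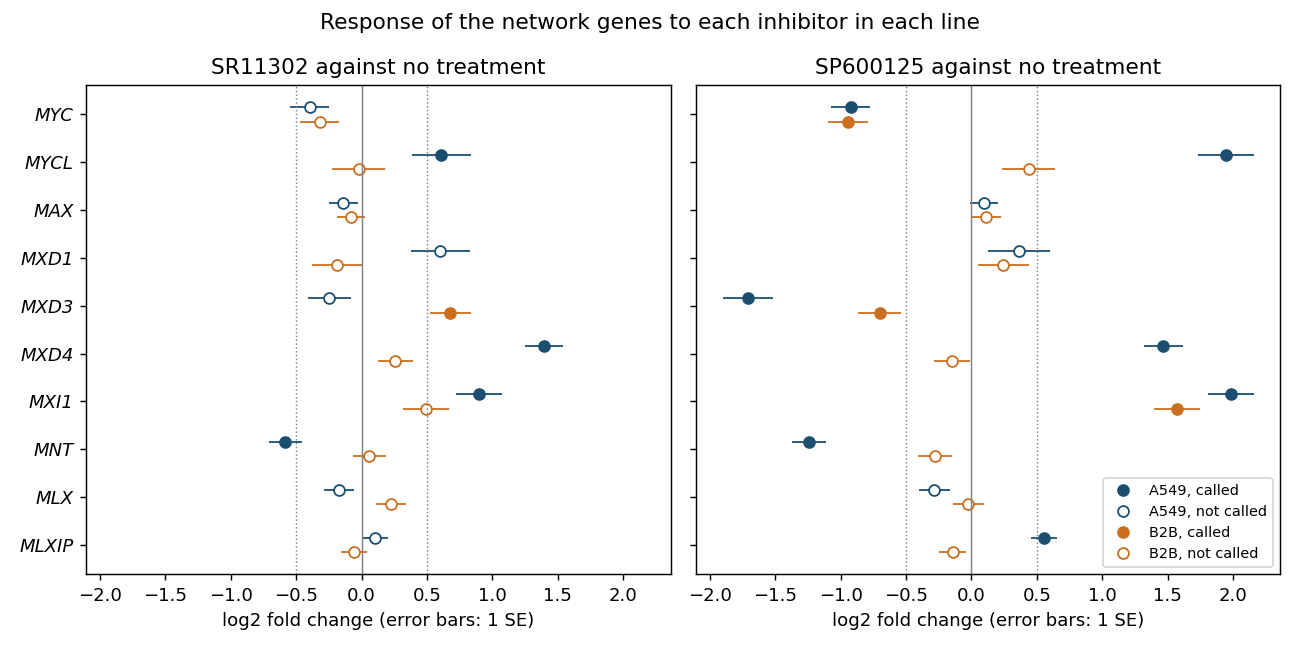
Log2 fold change (horizontal axis, bars of 1 SE) of each network gene under SR11302 (left) and SP600125 (right) against untreated cells, in A549 (blue) and B2B (orange). Filled points were called and open points were not; dotted lines mark the fold minimum of 0.5. MYC, MXD3 and MXI1 were called under SP600125 in both lines, whereas MYCL, MXD4, MNT and MLXIP were called in A549 and not in B2B (MYCL was called in B2B with scaling by library size only).

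The antagonists did not move as a block. In A549 under SP600125, MXI1 and MXD4 rose, MXD3 and MNT fell, and MXD1 was not called. MXI1, a repressor of the MXD family that competes with MYC for MAX, rose under SP600125 in both lines. It lies at chr10:110207605-110287365 on the plus strand, and all of its exon windows of 32 bases are unique in the genome. It was measured at 14.8 and 14.9 CPM in A549_NT, 21.9 and 33.4 CPM in A549_SR11302, and 59.3 and 58.2 CPM in A549_SP600125. In B2B it was 14.1 and 12.1 CPM untreated, 19.8 and 17.0 CPM under SR11302, and 37.9 and 39.7 CPM under SP600125. Both lines therefore began at nearly the same level and stepped up in the same order without overlap within a line. SP600125 raised MXI1 by 1.98 ± 0.18 in A549 (3.95-fold, adjusted p = 9.76e-07) and by 1.57 ± 0.17 in B2B (2.97-fold, adjusted p = 7.18e-06), and the difference of 0.41 ± 0.24 between those responses was not called (adjusted p = 0.232). SR11302 raised it by 0.90 ± 0.17 in A549 (adjusted p = 0.00143), or 1.17 without A549_SR11302 replicate 1 and 0.58 without replicate 2, both called. In B2B the value under SR11302 was 0.50 ± 0.18 (adjusted p = 0.0482), which lay just under the fold minimum and was called at 0.57 with scaling by library size only and at 0.50 with no filter or without A549_SR11302 replicate 1. SP600125 exceeded SR11302 by 1.08 ± 0.17 in A549 (adjusted p = 0.000171; 0.82 and 1.39 without A549_SR11302 replicates 1 and 2) and 1.07 ± 0.17 in B2B (adjusted p = 0.00024). Under treatment A549 was called above B2B, by 0.59 ± 0.17 with SR11302 (adjusted p = 0.00775) and 0.60 ± 0.17 with SP600125 (adjusted p = 0.00564). The SR11302 difference ran from 0.26 to 0.85 with a library left out, so it was not called in every such fit.

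MXD4 showed the widest gap between the untreated lines among the 10 genes. It lies at chr4:2247432-2262109 on the minus strand, and its promoter window holds the E-box printed above. The level was 17.1 and 12.6 CPM in A549_NT against 79.5 and 85.5 CPM in B2B_NT, a difference of -2.48 ± 0.15 (5.57-fold lower in A549, adjusted p = 3.29e-09). In A549 it was higher under both inhibitors, at 38.6 and 39.3 CPM under SR11302 and 40.0 and 41.9 CPM under SP600125. In B2B it stayed high, at 95.5 and 102 CPM under SR11302 and 82.5 and 66.4 CPM under SP600125. The rise in A549 was 1.40 ± 0.15 with SR11302 (adjusted p = 1.25e-05) and 1.47 ± 0.15 with SP600125 (adjusted p = 3.11e-06), while the B2B values were 0.26 ± 0.14 (adjusted p = 0.169) and -0.15 ± 0.14 (adjusted p = 0.381). The responses of the lines differed by 1.14 ± 0.20 for SR11302 (adjusted p = 0.00175) and by 1.61 ± 0.20 for SP600125 (adjusted p = 9.58e-05). Neither A549_SR11302 library decided the first of these rises, which was 1.41 without either. After treatment A549 still lay below B2B, by -1.34 ± 0.14 under SR11302 (adjusted p = 1.18e-06) and -0.86 ± 0.14 under SP600125 (adjusted p = 8.93e-05).

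MXD3, the family member tied to S phase and proliferating cells, fell under SP600125 in both lines and rose under SR11302 in B2B. It lies at chr5:177301461-177312757 on the minus strand, and its promoter window holds the AP-1 site printed above. Its libraries gave 16.5 and 17.2 CPM in A549_NT, 15.9 and 12.6 CPM in A549_SR11302, and 4.99 and 5.31 CPM in A549_SP600125. In B2B they gave 26.7 and 30.0 CPM untreated, 39.0 and 52.1 CPM under SR11302, and 18.4 and 16.4 CPM under SP600125. SP600125 was the lowest group in each line, and SR11302 the highest in B2B. SP600125 gave -1.71 ± 0.19 in A549 (3.27-fold lower, adjusted p = 6.64e-06) and smaller in B2B at -0.70 ± 0.16 (adjusted p = 0.00232), a difference of -1.01 ± 0.25 (adjusted p = 0.00987) that was not called without B2B_SP600125 replicate 1 (-0.89, adjusted p = 0.0509). Under SR11302 the values were -0.25 ± 0.17 in A549 (adjusted p = 0.266; -0.42 and -0.06 without A549_SR11302 replicates 1 and 2, neither called) and 0.68 ± 0.16 in B2B (adjusted p = 0.00538), and they differed by -0.93 ± 0.23 (adjusted p = 0.0137). The B2B rise was not called without B2B_NT replicate 1 (0.60, adjusted p = 0.0661) or B2B_SR11302 replicate 2 (0.46, adjusted p = 0.0766), nor was the difference (-0.84, adjusted p = 0.0704, and -0.71, adjusted p = 0.0688). MXD3 shares 24.2% of its exon bases with PRELID1 on the opposite strand and 19.5% with RAB24 on the same strand, and counting by strand is not stated, so its level is uncertain to that extent.

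MNT, the most widely expressed of the repressors, fell in A549 under both inhibitors. It lies at chr17:2384073-2401104 on the minus strand, with the E-box printed above in its promoter window. It was measured at 49.0 and 49.9 CPM in A549_NT, 32.5 and 33.5 CPM in A549_SR11302, and 23.4 and 18.4 CPM in A549_SP600125. In B2B it was 31.5 and 32.3 CPM untreated, 33.0 and 33.6 CPM under SR11302, and 27.9 and 24.7 CPM under SP600125. Untreated A549 was higher than B2B by 0.63 ± 0.12 (adjusted p = 0.00047). Under SR11302 the lines differed by -0.01 ± 0.13 (adjusted p = 0.943), and under SP600125 by -0.33 ± 0.13 (adjusted p = 0.0372), under the fold minimum, though called at -0.52 with library size only or without A549_SP600125 replicate 1. SP600125 lowered MNT in A549 by -1.24 ± 0.13 (2.37-fold, adjusted p = 3.81e-06) and SR11302 by -0.58 ± 0.12 (adjusted p = 0.00272; -0.46 and not called with library size only), against -0.28 ± 0.13 (adjusted p = 0.0798) and 0.06 ± 0.13 (adjusted p = 0.754) in B2B. The lines differed by -0.97 ± 0.18 for SP600125 (adjusted p = 0.00179) and -0.64 ± 0.18 for SR11302 (adjusted p = 0.0245), the latter not called without either untreated library of either line or without either B2B_SR11302 library.

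MXD1, the founding member of the family and a gene of differentiating cells, was lower in A549 in every condition. It lies at chr2:69897688-69942945 on the plus strand. It was measured at 4.95 and 4.94 CPM in A549_NT against 16.3 and 17.6 CPM in B2B_NT, a difference of -1.78 ± 0.22 (3.43-fold, adjusted p = 5.52e-06), and the gap was -0.99 ± 0.20 under SR11302 (adjusted p = 0.000695; -0.70 and -1.38 without A549_SR11302 replicates 1 and 2, both called) and -1.66 ± 0.22 under SP600125 (adjusted p = 1.16e-05). In A549_SR11302 the libraries stood apart at 5.68 and 9.25 CPM, and the change of 0.60 ± 0.23 was not called (adjusted p = 0.0509), though it was 0.91 (adjusted p = 0.00172) without replicate 1 and 0.23 (adjusted p = 0.47) without replicate 2, and it was also called with library size only (0.73) and with no filter (0.62). The other inhibitor values were 0.36 ± 0.24 for SP600125 in A549, 0.24 ± 0.19 for SP600125 in B2B and -0.18 ± 0.19 for SR11302 in B2B, none called. In A549 SP600125 differed from SR11302 by -0.24 ± 0.23 (adjusted p = 0.411), or by -0.54 to 0.13 with a library left out. MGA, another MAX partner with repressor activity, lay at 69.0 and 91.1 CPM in A549_NT and 129 and 123 CPM in B2B_NT, lower in A549 by -0.65 ± 0.13 (adjusted p = 0.000401; -0.47 and not called without A549_NT replicate 1), and neither inhibitor gave a call in either line.

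GC content ran alongside some of these values. Over 15811 genes the Spearman correlation between log2 fold change and exon GC content was -0.387 for SP600125 in A549, -0.184 for SR11302 in A549, -0.119 for SP600125 in B2B and 0.133 for SR11302 in B2B, and the network genes span 42.7% (MXD1) to 60.13% (MXD4) GC. With a GC correction chosen after seeing the data, the SP600125 changes in A549 became -0.64 for MNT, -1.20 for MXD3, 2.11 for MXD4, 1.89 for MXI1, 0.91 for MLXIP and, in the same units, all of these were still called. The fall of MNT was therefore cut by over 1.5 times, and the rise of MLXIP, at 0.55 without the correction, grew by over 1.5 times. The rise of MXD4, the most GC-rich of the 10, was also larger. Under SR11302 in A549 the MNT value became -0.40 (adjusted p = 0.0189), under the fold minimum, and the line difference for MNT became -0.37 (adjusted p = 0.159). MNT between the untreated lines became 0.41, also under the minimum, and between the lines under SP600125 it became -0.20. The difference between the inhibitors in A549 became 0.52 for MXD4 (adjusted p = 0.002), which passed, where it was 0.07 ± 0.14 (adjusted p = 0.707) and did not pass without the correction, and -0.24 for MNT (adjusted p = 0.17), where the call at -0.66 was lost. With a library left out and no GC correction, that MNT difference ran from -0.84 to -0.497, the latter just under the fold minimum. MXD1 under SR11302 in A549 was called at 0.51 with the correction. The difference of SP600125 from SR11302 also gained a call for MLXIP in A549 (0.70, from 0.45) and for MYCL in B2B (0.60, from 0.46).

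MLX and its partner MLXIP make up the arm that answers to glucose. MLX, at chr17:42567072-42573239 on the plus strand, was called in none of the 11 comparisons by edgeR or DESeq2, with 3 and 4 of them at an unadjusted p under 0.05. The exceptions lay among the alternatives. Its line difference for SR11302 was -0.40 (adjusted p = 0.11) with all libraries. That difference was called at -0.54 without A549_SR11302 replicate 1, and was -0.23 and not called without replicate 2. The difference of 0.32 between the untreated lines (adjusted p = 0.0239) was called with no fold minimum. MLX ranged from 37.5 to 49.2 CPM over all libraries, with 18.2% of its exon bases shared with PSMC3IP on the opposite strand. MLXIP, at chr12:122078756-122147344 on the plus strand, rose under SP600125 in A549 and not in B2B. It was measured at 165 and 150.4 CPM in A549_NT and 236 and 226 CPM in A549_SP600125, against 127 and 132 CPM in B2B_NT and 125 and 109 CPM in B2B_SP600125. Treated and untreated libraries did not overlap in either line, with treated cells higher in A549 and lower in B2B. The change in A549 was 0.55 ± 0.10 (1.47-fold, adjusted p = 0.00034). Without A549_NT replicate 2 it was 0.49, under the fold minimum and so not called. In B2B the change was -0.14 ± 0.10 (adjusted p = 0.24), and the line difference was 0.70 ± 0.14 (adjusted p = 0.00288). Under SR11302 the values were 0.10 ± 0.10 in A549 and -0.06 ± 0.10 in B2B. MLXIPL, the partner best known in liver, was abundant only in A549 among these lines, at 15.9 and 16.6 CPM in A549_NT and 0.239 and 0.326 CPM in B2B_NT (5 and 8 reads), a difference of 5.80 ± 0.27 (adjusted p = 2.65e-10). It fell in A549 by 0.72 ± 0.17 on the log2 scale under SR11302 (adjusted p = 0.00538; -0.55 and -0.90 without A549_SR11302 replicates 1 and 2, both called) and by 1.09 ± 0.18 under SP600125 (adjusted p = 0.000182), values that became -0.48 and -0.32, neither called, after the GC correction.

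Set per kb of longest transcript, MYC outweighed its antagonists in untreated A549 and no longer did so under SP600125. MYC was 67.2 and 65.2 CPM per kb in A549_NT, and the summed level of MXD1, MXD3, MXD4, MXI1 and MNT was 26.4 and 25.8 CPM per kb, which gives ratios of 2.55 and 2.52. In B2B_NT the ratios were 1.01 and 1.00. They fell to 1.89 and 1.33 in A549_SR11302 and 1.07 and 0.964 in A549_SP600125, and to 0.712 and 0.551 in B2B_SR11302 and 0.422 and 0.634 in B2B_SP600125. Ranges did not overlap in any of the 5 comparisons of untreated lines or of an inhibitor with its untreated line. The log2 ratio changed by -1.32 (2.49-fold) in A549 and -0.96 (1.95-fold) in B2B under SP600125, and by -0.68 in A549 (1.6-fold) and -0.68 in B2B (1.61-fold) under SR11302. Two-sided exact permutation p-values were 0.333 each, the smallest that 2 libraries against 2 allow. The parts of the ratio moved differently: in A549 under SP600125 the mean MYC level went from 66.2 to 34.9 CPM per kb and the summed antagonists from 26.1 to 34.3, whereas in B2B MYC went from 45.5 to 23.7 and the antagonists stayed at 45.2 and 45.4. Under SR11302 in B2B the antagonists went from 45.2 to 58.1 CPM per kb. Where a ratio stands against 1 depends on the transcript length chosen. MXD3, for one, has 2279 bases in its longest transcript and 1067 in its canonical one. Equal levels here hold for the longest transcripts only. Transcript ratios are not protein ratios, and MYC protein in particular is short-lived.

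**Figure D3:**
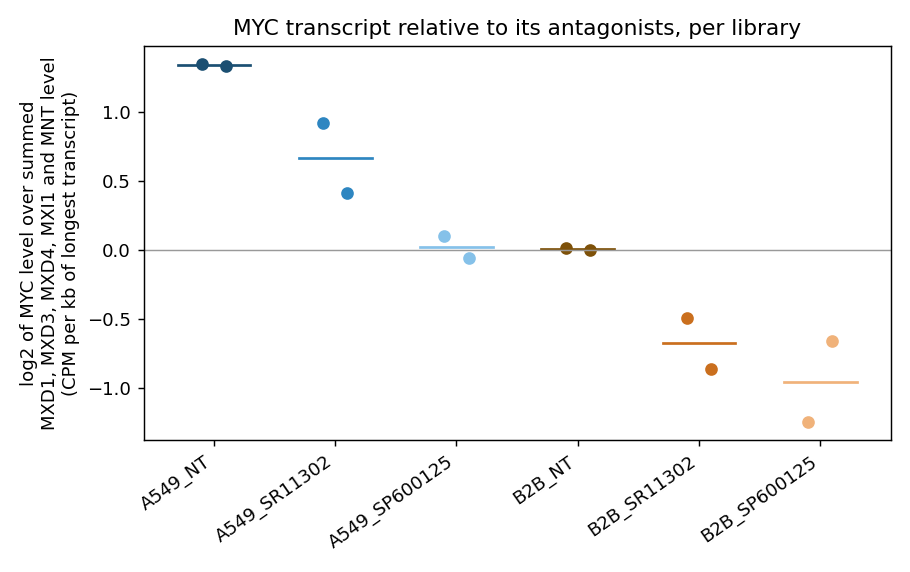
Log2 ratio of the MYC level to the summed level of MXD1, MXD3, MXD4, MXI1 and MNT (CPM per kb of longest transcript), by group. Points are libraries and bars are means of 2. The line at 0 marks equal levels on this length scale only. A549_NT lies near 1.34, A549_SP600125 near 0.03 and B2B_NT near 0.01, and the treated B2B libraries all lie below 0.

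Genes known as MYC targets were mostly higher in untreated A549 than in B2B and mostly fell under SP600125 in both lines. The list holds 58 genes, all tested, among them genes of ribosome assembly, nucleotide metabolism, chaperones and glycolysis and others such as CDK4, TERT and TFRC. Between the untreated lines 39 were higher in A549 and 1 lower (30.4% and 26.5% of all genes), with a median log2 fold change of 0.74 against 0.05 over all tested genes. Under SP600125, 45 fell and 0 rose in A549 (25.0% of all genes fell and 23.9% rose), with a median of -0.94 against 0.02, and 38 fell and 1 rose in B2B (22.6% of all genes fell), with a median of -0.73 against 0.01. Of the targets that lay higher in A549 under SP600125, 0 had an unadjusted p under 0.05 in edgeR or DESeq2. SR11302 gave 17 falls and 2 rises in A549 (13.0% and 14.8% of all genes) and 11 falls and 1 rise in B2B (11.1% and 11.4% of all genes), with medians of -0.30 and -0.21. The A549 count under SR11302 was 34 falls without A549_SR11302 replicate 1 and 8 without replicate 2. In 25 targets with at least 95% unique exon windows, 22 fell under SP600125 in A549 and 19 in B2B, with medians of -1.34 and -0.91. The GC correction left 40 and 38 of the 58 called lower. For SR11302 the falls in A549 numbered 14 with the GC correction and 11 with library size only, and in B2B 18 with the GC correction and 7 with library size only, so the SR11302 counts depended on the setting.

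TERT, the catalytic subunit of telomerase, stood at 19.2 and 19.3 CPM in A549_NT and 2.16 and 2.0 CPM in A549_SP600125, a change of -3.21 ± 0.25 (adjusted p = 3.8e-07), and it fell by 2.28 ± 0.22 in B2B (adjusted p = 1.91e-06). Under SP600125 in A549 the folate carrier SLC19A1 changed by -2.85 ± 0.24 and the nucleolar protein MYBBP1A by -2.08 ± 0.17. NPM1, the nucleolar protein nucleophosmin, had 1626 and 1656 CPM in B2B_NT and 259 and 316 CPM in B2B_SP600125 (-2.51 ± 0.14), and it was the target with the greatest fall under SR11302 in both lines, at -1.79 ± 0.13 in A549 and -2.13 ± 0.13 in B2B. It has near-identical copies elsewhere in the genome (80.2% of its exon windows were unique), so its level is uncertain. HK2, hexokinase 2, was the exception between the lines, at 5.51 CPM in A549_NT and 90.1 CPM in B2B_NT, and it fell in B2B under both inhibitors, by 1.18 ± 0.18 and 2.63 ± 0.20 on the log2 scale, also with only 72.06% unique windows. The rises were TMEM97 in B2B under SP600125 (0.83 ± 0.10) and SR11302 (0.56 ± 0.10), and in A549 under SR11302 the nucleotide kinase NME1 (0.51 ± 0.16) and the cyclin CCND2, which had under 2 CPM in every library.

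**Figure D4:**
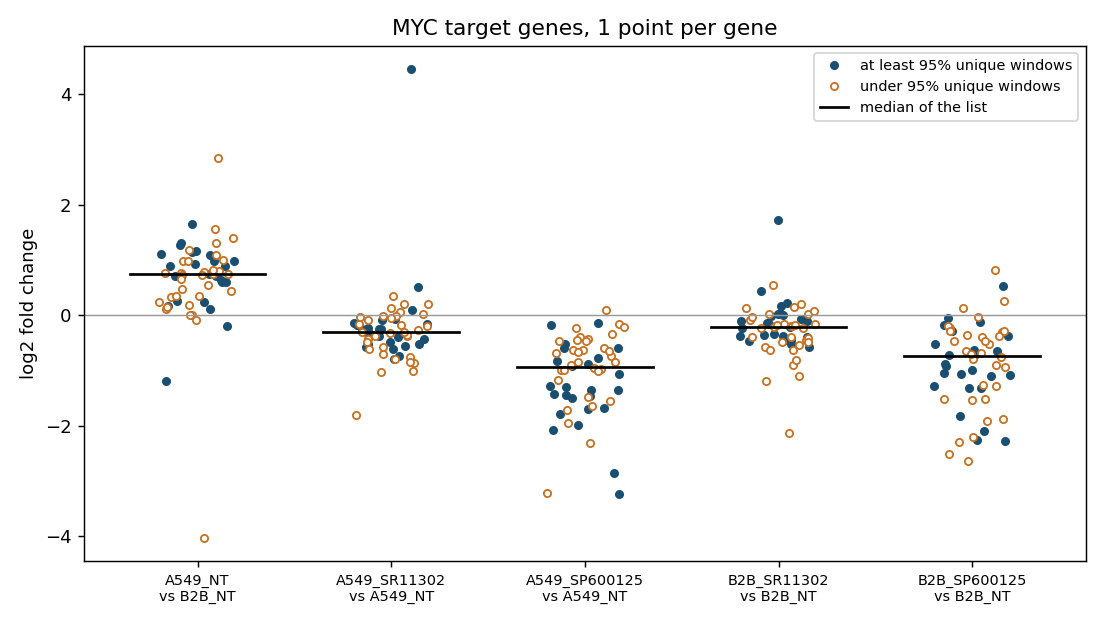
Log2 fold changes of the 58 MYC target genes in 5 comparisons. Filled points have at least 95% unique exon windows and open points fewer; black lines are medians of the list. The median lies at 0.74 between the untreated lines and at -0.94 and -0.73 under SP600125 in A549 and B2B, with SR11302 nearer 0 at -0.30 and -0.21.

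Of 14 coactivators and other partners of MYC, 7 fell under SP600125 in A549 and 5 in B2B (25.0% and 22.6% of all genes fell), with medians of -0.46 and -0.12. Under SR11302 2 fell in A549 and 1 in B2B, near the 13.0% and 11.1% of all genes that fell, and 0 rose in these 4 comparisons. At an unadjusted p under 0.05 in edgeR, 2 lay higher under SR11302 in B2B and 1 under SP600125 in A549, and DESeq2 called 0 higher. HCFC1, the host cell factor that binds MYC, went from 381 and 345 CPM in A549_NT to 104 and 108 CPM in A549_SP600125 (-1.78 ± 0.14, adjusted p = 3.19e-07) and from 361 and 389 CPM in B2B_NT to 177 and 160.0 CPM in B2B_SP600125 (-1.16 ± 0.13, adjusted p = 9.5e-06). Of 15 subunits of the SIN3 corepressor complex, through which the MXD proteins repress, 8 rose and 0 fell in B2B under SP600125 (21.2% of all genes rose, and 1 subunit lay lower at an unadjusted p under 0.05 in edgeR and 2 in DESeq2, which called 0), with a median of 0.63 against 0.01 over all genes. In A549 3 rose and 2 fell, below the 23.9% and 25.0% of all genes that did. The risers in both lines included ARID4A, a DNA-binding subunit, by 0.97 ± 0.13 in A549 and 0.87 ± 0.13 in B2B, and SAP18, by 0.65 ± 0.11 and 0.84 ± 0.11. ING1, a reader of methylated histone H3, rose by 0.84 ± 0.12 in B2B, and its responses differed between the lines by -1.23 ± 0.17 (adjusted p = 0.000198).

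Of 17 genes that govern the life of the MYC protein, SP600125 raised 3 and lowered 6 in A549 (23.9% and 25.0% of all genes) and raised 4 and lowered 3 in B2B (21.2% and 22.6% of all genes). SR11302 raised 1 and lowered 4 in A549 (14.8% and 13.0% of all genes) and gave 0 calls in B2B (22.5% of all genes; 4 at an unadjusted p under 0.05 in edgeR and in DESeq2, which called 1). Most of these counts stood near the background. FBXW7, the ubiquitin ligase subunit that marks phosphorylated MYC for degradation, rose under SP600125 from 14.7 and 15.9 to 29.3 and 26.9 CPM in A549 (0.88 ± 0.14, adjusted p = 0.000119) and from 23.4 and 21.2 to 46.5 and 40.8 CPM in B2B (0.97 ± 0.13, adjusted p = 4.19e-05). FBXO32, another F-box ligase subunit, rose by 2.68 ± 0.21 in A549 and 1.01 ± 0.17 in B2B, a line difference of 1.68 ± 0.27 (adjusted p = 0.000671). USP28, which opposes FBXW7 by removing ubiquitin from MYC, rose by 1.16 ± 0.12 in B2B (adjusted p = 3.13e-06). USP36, a nucleolar deubiquitinase of MYC, fell in both lines (-1.01 ± 0.12 and -0.54 ± 0.11), as did the ligase STUB1 (-1.37 ± 0.22 and -1.04 ± 0.22).

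All 4 genes that answer to MLX dimers with MLXIP or MLXIPL were called between the untreated lines (56.9% of all genes), 2 higher and 2 lower in A549. TXNIP, which restrains glucose uptake, had 0.389 and 0.637 CPM in A549_NT against 129 and 125 CPM in B2B_NT, a difference of -7.92 ± 0.38 (adjusted p = 3.35e-10), and ARRDC4, its relative, 1.39 and 2.02 against 25.1 and 23.7 CPM. PFKFB3, a glycolytic regulator, went the other way, at 653 CPM in A549_NT and 54.6 CPM in B2B_NT. Under SR11302 2 of the 4 rose and 1 fell in A549 (14.8% and 13.0% of all genes). In B2B 0 rose and 3 fell (11.4% and 11.1% of all genes). The line difference for SR11302 was called for all 4 (15.8% of all genes), 3 positive and 1 negative. The risers in A549 were ARRDC4 and TXNIP. TXNIP was near the floor there, with 7 and 12 reads in A549_NT against 11 and 65 in A549_SR11302. Its rise and its line difference therefore rest on few reads, most of them in A549_SR11302 replicate 2. ARRDC4 rose under SR11302 in A549 (2.64 ± 0.34, adjusted p = 6.78e-05) and fell in B2B (-1.10 ± 0.26, adjusted p = 0.00665), and the line difference of 3.74 ± 0.43 was called (adjusted p = 6.91e-05). Its libraries in A549_SR11302 stood at 6.75 and 14.5 CPM. KLF10 was the 1 that fell in A549, from 336 and 342 CPM in A549_NT to 163 and 185 CPM in A549_SR11302. SP600125 raised TXNIP in B2B to 265 and 248 CPM (1.02 ± 0.23, adjusted p = 0.00176), while in A549 it stayed at 0.894 and 0.965 CPM. In A549 under SP600125 1 of the 4 was called, and it rose, where 48.8% of all genes were called and 23.9% rose.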

How the data were processed

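Per the labels, total RNA was prepared with the KAPA mRNA HyperPrep kit, and the submitters' processing notes name STAR 2.7.10a, HTSeq 1.99.2 and hg38. Annotation, read length and strandedness were not found in the labels or the study's methods. The authors deposited HTSeq counts of whole reads per gene symbol for each of the 12 libraries, not normalized. The summary lines for reads in no gene, ambiguous reads and reads aligned to several places were left out of library sizes. Reads from gene copies that align to several places were not counted by the authors, which lowers genes with near-identical copies.

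Counts were tested with edgeR 4.0.16 in R 4.3.3 (TMM scaling, filterByExpr, quasi-likelihood F-test, Benjamini-Hochberg over 16373 genes), with the 6 groups of 2 libraries in a single model with 6 residual degrees of freedom. The study used DESeq2, which was run as an alternative (version 1.42.0). The lone library left when its partner is dropped is assumed to vary like the other groups. Other alternatives were scaling by library size only, RLE size factors, no filter, only the groups compared, a replicate block, leaving out each library and no fold minimum. A GC offset, counts within uniquely mapping genes and the canonical transcript as length were added after seeing the data. Scripts were tested on simulated data. Gene positions, lengths, GC content and overlaps come from GENCODE v44 on hg38, to which 24592 symbols matched, 1431 through an older symbol. Promoter windows come from RefSeq. Exon windows of 32 bases were searched in the genome for other copies.

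The network genes and all lists were chosen with earlier results of these data known. Named genes are the 10 genes, MYCN, MGA and MLXIPL, the 3 most like MYC, and, per list, comparison and direction, up to 3 called genes with the largest change and at least 10 CPM in the higher group. CCND2 was named after its values were seen. A coactivator that the rule names is not reported here.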

Additional observations from a re-analysis of the deposited data

Results flagged for a closer look

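In 8 cases the response of a network gene differed between the lines by the direct test of edgeR (A549 response minus B2B response, log2 scale, Benjamini-Hochberg adjusted p). For SR11302 these were MXD3 at -0.93 ± 0.23 (adjusted p = 0.0137), MXD4 at 1.14 ± 0.20 (adjusted p = 0.00175) and MNT at -0.64 ± 0.18 (adjusted p = 0.0245). For SP600125 they were MYCL at 1.51 ± 0.29 (adjusted p = 0.00231), MXD3 at -1.01 ± 0.25 (adjusted p = 0.00987), MXD4 at 1.61 ± 0.20 (adjusted p = 9.58e-05), MNT at -0.97 ± 0.18 (adjusted p = 0.00179) and MLXIP at 0.70 ± 0.14 (adjusted p = 0.00288). MXD3, MXD4 and MNT appear for both inhibitors, and the tests share the untreated libraries. As described above, the MXD3 differences for both inhibitors and the MNT difference for SR11302 lost their calls without some of the libraries. That MNT difference was also -0.37, under the fold minimum, with the GC correction.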

How the results depend on the processing

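No change of a network gene reversed direction under any alternative where it had been called. Of 110 values (10 genes in 11 comparisons), 6 lost and 4 gained their call with the GC offset, 4 lost and 5 gained it with library size only, 9 gained it with no fold minimum, 1 lost and 3 gained it with no filter, 2 lost it in fits of only the groups compared, 1 lost it with DESeq2, and none changed with RLE size factors. Over 1320 values with a library left out, 33 lost and 13 gained a call. Correlations of the replicate 1 deviations between groups ran from -0.691 (A549_SR11302 with B2B_SR11302) to 0.628 (A549_NT with A549_SR11302). Libraries of the same number thus did not deviate alike in all groups. Whether some groups share a batch or a pairing was not tested, since the range cannot decide it. With a replicate block, MYCL under SR11302 in A549 (0.61, adjusted p = 0.0583) was the 1 of the 110 values to lose its call, and the block called 4418 rather than 4557 genes there.

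For SR11302 in B2B, the network genes called were 1 as reported, 2 with library size only, 2 with no filter and 2 with no fold minimum, and 0 to 2 with a library left out. All genes called there ran from 2406 (without B2B_NT replicate 1) to 4086 against 3677. For the line difference under SR11302, leaving out a library gave 1375 (without A549_NT replicate 1) to 4768 (without A549_SR11302 replicate 1) genes against 2579, and 1 to 6 network genes against 3. For the line difference under SP600125 it gave 2741 to 4972 genes against 4121. Network genes called between SP600125 and SR11302 were 3 to 5 in A549 against 5, and in B2B 5 with no fold minimum against 3. Library size only moved the median log2 fold change of all genes to between -0.16 and 0.15 over the 11 comparisons, from between -0.03 and 0.05, and raised the split under SP600125 in B2B to 4444 higher and 3071 lower from 3478 and 3696, under SR11302 in A549 to 3192 and 1622 from 2423 and 2134, and under SR11302 in B2B to 2345 and 1495 from 1863 and 1814. With canonical transcript lengths the log2 ratio of MYC to its antagonists changed by -1.04 in A549 and -0.82 in B2B under SP600125, and by -0.58 and -0.76 under SR11302. The causes were not tested. With 32 to 110 reads a library, MYCL is limited by depth, and 2 libraries a group limit every error given.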
